A study of Mus musculus with 6 samples.

Results

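Saa1, Saa2, Saa3, Lcn2, Ptx3, Hp, Steap4 and Orm1 are acute-phase genes, whose products are made in larger or smaller amounts during inflammation. They were taken by symbol from a list of 8 names, and all 8 were among the 17419 genes of the deposited table. RNA had been sequenced in bulk from fibroblasts of the mouse tendon enthesis, the place where tendon joins bone, in 6 samples, 3 labelled diseased and 3 labelled un-diseased. Both groups came from SKG mice, a strain with a Zap70 mutation that is prone to autoimmune arthritis, so the controls carry it too. The sources used here do not give the age of the mice, the agent that brought on disease, or what the NTS and UN of the sample names stand for. Nothing in them says that replicates were different mice or different cultures. The p-values below therefore describe the spread among these 6 samples, and that spread may be technical.

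In the textbook acute-phase response, IL-6 and related cytokines act through STAT3, and IL-1 and TNF act through NF-kB and C/EBP factors. Together they turn on many acute-phase genes in liver. Stromal cells make some of the same proteins locally. Saa3 in particular is known in mice as a serum amyloid A gene of tissues other than liver, while Saa1 and Saa2 are mainly liver genes. Levels below are in CPM, the count of a gene scaled to a common library size after TMM normalization. Total counts per sample lay between 16720612 and 18290873, and 3 counts, the limit that a count of 0 allows, were worth 0.147 to 0.188 CPM, for counting error only.

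Saa3 and Hp were higher in diseased samples, by 2.48-fold and 2.03-fold, and Saa3 passed the test. Ptx3 and Steap4 were lower on average in diseased samples, but the groups overlapped and neither passed that test. Both passed when samples of the same number were compared with each other, a pairing that the labels do not state. Lcn2 and Saa1 were higher by less and did not pass, and Saa2 and Orm1 were too scarce to compare well. By edgeR's quasi-likelihood test over all 13264 genes that passed the count filter, with a Benjamini-Hochberg adjusted p below 0.05 as the threshold, 1 of the 7 tested members was higher and 0 were lower. Of all tested genes, 1.61% were called higher (213) and 2.13% lower (282), 3.73% in all. Upper-quartile scaling called 417 higher and 288 lower. At an unadjusted p below 0.05, 4 members were higher and 0 lower, against 13.4% and 14.4% of all tested genes. DESeq2 called 2 higher and 0 lower, where it called 4.79% of all genes higher and 6.65% lower, and limma-voom called 1 and 0, against 1.62% and 2.16% of all genes. The same 2, Saa3 and Hp, have a q-value below 0.05 in the authors' deposited table, where 3.3% of its genes are higher and 4.52% lower by that rule. The fit with the replicate number as a block called 2 members higher, Saa3 and Hp, and 2 lower, Ptx3 and Steap4, where it called 10.5% of all tested genes higher and 13.3% lower, 23.9% in all. The groups did not overlap for Saa3, Lcn2 and Hp, all higher in diseased samples, and 0 members were lower without overlap. Of all tested genes 16.5% were higher and 15.4% lower without overlap.

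**Figure D1:**
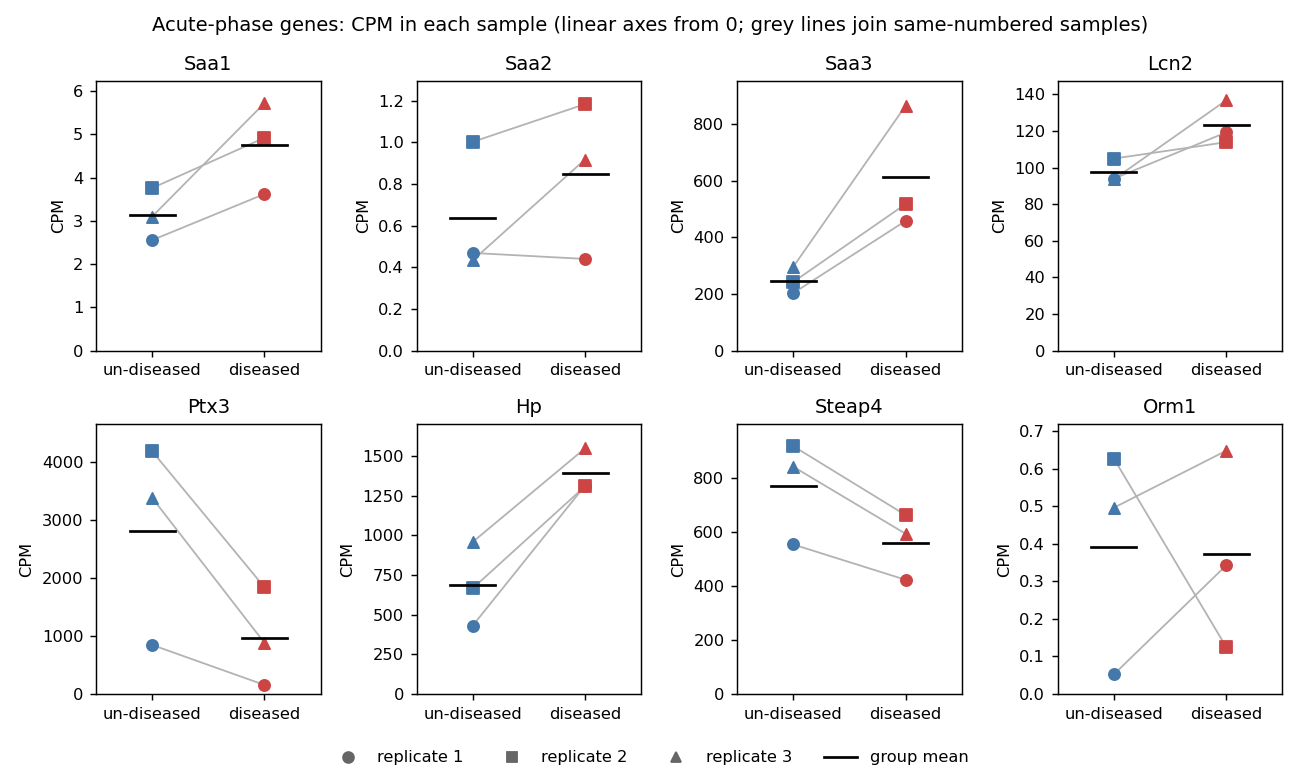
CPM of each of the 8 genes (vertical axes, linear from 0) in un-diseased and diseased samples (horizontal axis). Symbols mark the replicate number, grey lines join same-numbered samples and black bars are group means. Saa3 and Hp lie higher in all 3 diseased samples, and all 3 lines of Ptx3 and Steap4 go down.

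Saa3 encodes serum amyloid A3, a small apolipoprotein that binds lipoproteins and retinol and draws in leukocytes. It had 459, 518 and 866 CPM in diseased replicates 1, 2 and 3 and 203, 243 and 297 CPM in the un-diseased ones. Every diseased sample lay above every un-diseased one, and diseased replicate 3 stood well above the rest of its group. The gene (20210, GRCm38 chromosome 7, 46711998 to 46719615, minus strand, 4 exons in its main transcript) rose by 1.31 on the log2 scale (SE 0.27, adjusted p = 0.0438 by edgeR). With the replicate block the rise was 1.27 (SE 0.13, adjusted p = 0.00167 by edgeR). The differences within same-numbered pairs 1, 2 and 3 were 1.17, 1.09 and 1.54 on the log2 scale. Without any single one of the 6 samples the unblocked adjusted p by edgeR lay between 0.0543 and 0.132, so the unblocked call rested on having all 6, while the log2 change stayed between 0.98 and 1.48. The authors' deposited table, whose log2 ratios put un-diseased samples on top, gives Saa3 -1.30 and a q-value of 6.66e-05.

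Saa1 and Saa2 encode the circulating serum amyloid A proteins of the liver response and lie beside Saa3 on chromosome 7. Saa1 (46740497 to 46743181, minus strand) had 3.62, 4.92 and 5.72 CPM in diseased and 2.55, 3.76 and 3.10 CPM in un-diseased replicates 1, 2 and 3. The groups overlapped by the diseased replicate 1 value alone, and each diseased sample lay above the un-diseased sample of its number. The log2 fold change of Saa1 was 0.60 (SE 0.25, adjusted p = 0.176 by edgeR), and 0.59 (SE 0.20, adjusted p = 0.0643 by edgeR) with the replicate block. Saa2 (46751833 to 46754313, plus strand) had 9, 19 and 17 counts in diseased and 9, 16 and 7 in un-diseased samples. Its log2 fold change was 0.40 with an SE of 0.51 (adjusted p = 0.618 by edgeR), so no difference was detectable at this depth.

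The family members resemble each other, which bears on how reads are shared among them. In the main GENCODE transcripts, Saa1 and Saa2 were 94.4% identical over 606 aligned bases, and their longest shared run was 76 bases. Saa3 was 74.3% identical to Saa1 and 72% to Saa2, with longest shared runs of 58 and 41 bases. No window of 150 bases, the read length in the labels, was shared between any 2 of Saa1, Saa2 and Saa3. No full-length read thus matched 2 of these transcripts exactly. How reads with mismatches or trimmed ends were shared out between Saa1 and Saa2 is not given in the sources used here, so their split is uncertain to that extent.

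Hp encodes haptoglobin, the plasma protein that captures free haemoglobin. It had 1314, 1309.7 and 1549 CPM in diseased replicates 1, 2 and 3 and 430.4, 666 and 958 CPM in the un-diseased ones. The diseased samples lay close together and above all un-diseased samples, which were spread more widely. The gene (15439, chromosome 8, 109575128 to 109579172, minus strand) had a log2 fold change of 1.02 (SE 0.28, adjusted p = 0.0819 by edgeR), which did not pass. With the replicate block Hp rose by 1.09 (SE 0.19, adjusted p = 0.0066 by edgeR), and with DESeq2 by 1.01 (adjusted p = 0.00402). The differences within pairs 1, 2 and 3 were 1.61, 0.98 and 0.69 on the log2 scale. The blocked call held without each pair in turn, with an adjusted p by edgeR of up to 0.0266. Blocked fits without a pair, here and below, have few samples left, so their p-values lean heavily on variance shared over genes. The authors' deposited table gives Hp a log2 ratio of -1.01, un-diseased on top, and a q-value of 0.00499.

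Lcn2 encodes lipocalin-2, which binds the iron-carrying siderophores of bacteria and is also stored in neutrophil granules. Its CPM was 119, 114 and 137 in diseased and 94.0, 105 and 93.6 in un-diseased replicates 1, 2 and 3. The groups did not overlap, but the distance between them was small. The log2 fold change was 0.34 (SE 0.11, adjusted p = 0.116 by edgeR), and with the replicate block 0.34 (SE 0.11, adjusted p = 0.0532 by edgeR). Lcn2 (chromosome 2, 32384637 to 32387739, minus strand) passed in 1 of the alternatives, the blocked fit without pair 2 (adjusted p = 0.0403 by edgeR).

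**Figure D2:**
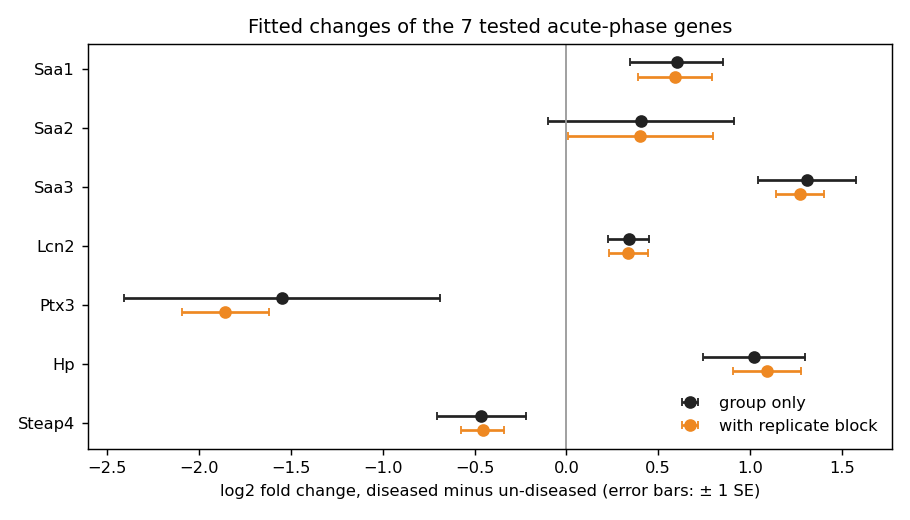
Log2 fold change of the 7 tested members (horizontal axis, diseased minus un-diseased, bars ± 1 SE) from the fit by group only and from the fit with the replicate block. The SE of Ptx3 falls from 0.86 to 0.24 with the block, while that of Lcn2 stays at 0.11.

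Ptx3 encodes pentraxin 3, a soluble pattern receptor that binds complement C1q and organises hyaluronan-rich matrix. It varied most of the 7 tested members, with 155, 1838 and 880.4 CPM in diseased and 844, 4183 and 3379.9 CPM in un-diseased replicates 1, 2 and 3. The highest sample was 27.1 times the lowest, and the replicate 1 sample was the lowest of its group in both groups, so the groups overlapped. Each diseased sample nevertheless lay below the un-diseased sample of its number, by 2.45, 1.19 and 1.94 on the log2 scale (differences of -2.45, -1.19 and -1.94 in pairs 1, 2 and 3). The log2 fold change was -1.55 (SE 0.86, adjusted p = 0.273 by edgeR). With the replicate block Ptx3 fell by 1.86 on the log2 scale (SE 0.24, adjusted p = 0.00269 by edgeR), and this held without each pair in turn, with an adjusted p by edgeR of up to 0.0322. The gene (19288) lies on chromosome 3 from 66219887 to 66225806 on the plus strand and has 3 exons in its main transcript.

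Steap4 encodes a membrane metalloreductase for iron and copper that is induced by inflammatory cytokines. It had 422, 662 and 593 CPM in diseased and 553, 917 and 841 CPM in un-diseased replicates 1, 2 and 3. As for Ptx3, the replicate 1 samples were the lowest of both groups and the groups overlapped, and all 3 pairs went down. The pair differences were -0.39, -0.47 and -0.51 on the log2 scale. Steap4 (chromosome 5, 7960472 to 7982213, plus strand) had a log2 fold change of -0.46 (SE 0.24, adjusted p = 0.249 by edgeR) and with the replicate block fell by 0.45 (SE 0.12, adjusted p = 0.0279 by edgeR). The blocked call did not hold without pair 1, 2 or 3, where the adjusted p by edgeR was 0.0682, 0.0913 and 0.105.

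Orm1 encodes orosomucoid 1, an acid glycoprotein of plasma. It had 7, 2 and 12 counts in diseased and 1, 10 and 8 in un-diseased replicates 1, 2 and 3, did not pass the count filter and was not tested. Its main transcript was 91% identical to that of Orm2 and shared a run of 141 bases with it, but no window of 150 bases. Of the 7 tested members, 4 were higher in all 3 pairs and 2 were lower in all 3, where 30.7% of all tested genes were higher and 30.1% lower in all 3. The exception was Saa2, with differences of -0.07, 0.22 and 0.91 in pairs 1, 2 and 3.

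To compare genes with each other, CPM was divided by the length of the main GENCODE transcript in kilobases. In un-diseased samples Ptx3 stood highest with 1477 ± 918 CPM per kilobase (SD, n = 3), then Hp with 509 ± 197 and Saa3 with 446 ± 84.3. The ranges of these 3 genes overlapped, but Ptx3 was the highest of them in each un-diseased sample. Between Hp and Saa3 the order differed by sample, with Saa3 higher in un-diseased replicate 1 and Hp in replicates 2 and 3. Steap4 followed with 244 ± 60.8 and Lcn2 with 107 ± 7.03, which did not overlap with each other. In diseased samples the order of the means began with Saa3 at 1107 ± 396 and Hp at 1034 ± 102, which overlapped. Hp was the higher of these in diseased replicates 1 and 2, and Saa3 in replicate 3. Ptx3 came next at 504 ± 445. Its range of 81.4 to 968 overlapped with that of Saa3 (826 to 1560) and ended just below that of Hp (974 to 1152). The range of Ptx3 also spanned those of Steap4 (134 to 210) and Lcn2 (124 to 149). In diseased replicate 1 Ptx3 lay below both. Steap4 at 177 ± 39.1 and Lcn2 at 135 ± 13.1 followed, with overlapping ranges, though Steap4 was the higher in each diseased sample. Saa1 was far lower, at 7.80 ± 1.74 in diseased and 5.15 ± 0.989 in un-diseased samples, and Saa2 and Orm1 were lower again. Of Saa1, Saa2 and Saa3, Saa3 was thus the highest per length in each of the 6 samples. Single samples differed in which of Saa3 and Ptx3 was higher per length: Ptx3 was the higher in all 3 un-diseased samples and in diseased replicate 2 (968 against 934 CPM per kilobase), and Saa3 in diseased replicates 1 and 3.

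**Figure D3:**
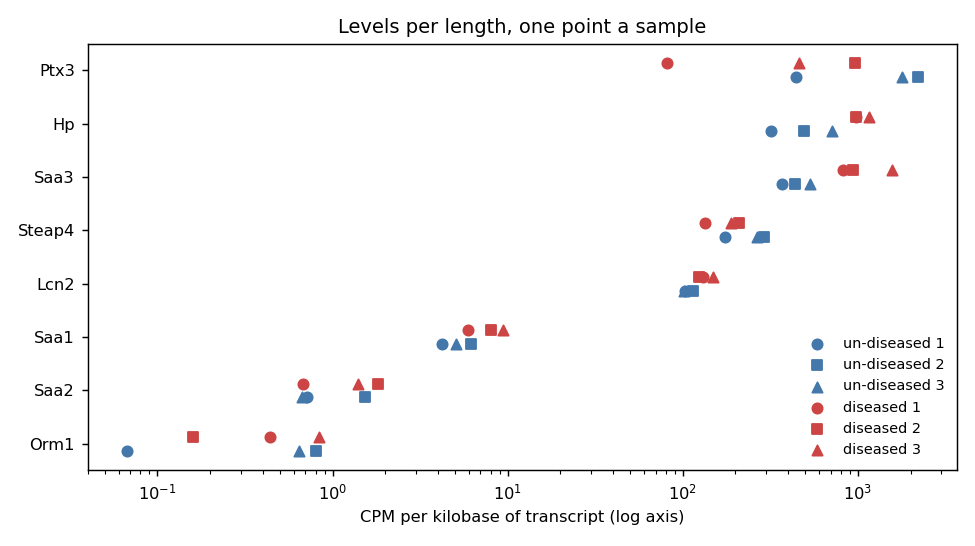
CPM per kilobase of transcript (horizontal log axis) of the 8 genes, with 1 point for each sample, coloured by group and shaped by replicate number. Saa3, Hp and Ptx3 lie at the top, except that Ptx3 falls below Steap4 and Lcn2 in diseased replicate 1. Saa1, Saa2 and Orm1 lie below 10 CPM per kilobase in every sample.

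The promoters of 4 members are shown because these genes moved in opposite directions or share a family: Saa3 and Saa1, both higher in all 3 pairs, and Ptx3 and Steap4, both lower in all 3 pairs. The RefSeq promoter table (GRCm38.p6) held 6 of the 8 members, without Hp and Orm1, and the 250 bases before the listed start of each gene were searched on both strands. The motifs were TTGCNNAA for C/EBP factors, GGGA and TTCC with any NN between them for NF-kB, TTCNNNGAA for STAT factors and TATAAA for the TATA box, and no matches overlapped one another. Capitals mark the matches, and each sequence is on the strand of its gene, 5′ to 3′. Saa3 is chr7:46715677-46715926 (minus strand), Saa1 chr7:46742981-46743230 (minus strand), Ptx3 chr3:66219637-66219886 (plus strand) and Steap4 chr5:7960222-7960471 (plus strand). For Saa3 and Saa1 the listed start lies inside the annotated span of the gene given above, so these windows lie partly or wholly within it.
Saa3: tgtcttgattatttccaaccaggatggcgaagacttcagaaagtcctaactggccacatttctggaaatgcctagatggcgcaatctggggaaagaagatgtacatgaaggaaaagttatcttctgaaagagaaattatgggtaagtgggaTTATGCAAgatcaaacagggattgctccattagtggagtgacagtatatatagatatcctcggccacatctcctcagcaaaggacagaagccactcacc
Saa1: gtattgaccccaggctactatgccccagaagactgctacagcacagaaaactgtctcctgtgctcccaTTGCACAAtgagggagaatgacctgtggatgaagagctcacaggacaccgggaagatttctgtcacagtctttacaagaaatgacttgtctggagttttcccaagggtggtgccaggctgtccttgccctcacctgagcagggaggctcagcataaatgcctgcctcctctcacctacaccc
Ptx3: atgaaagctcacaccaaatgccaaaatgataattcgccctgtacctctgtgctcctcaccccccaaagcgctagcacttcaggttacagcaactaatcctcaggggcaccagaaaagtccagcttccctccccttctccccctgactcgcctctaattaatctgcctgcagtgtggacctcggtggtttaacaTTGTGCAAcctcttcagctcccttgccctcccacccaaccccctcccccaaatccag
Steap4: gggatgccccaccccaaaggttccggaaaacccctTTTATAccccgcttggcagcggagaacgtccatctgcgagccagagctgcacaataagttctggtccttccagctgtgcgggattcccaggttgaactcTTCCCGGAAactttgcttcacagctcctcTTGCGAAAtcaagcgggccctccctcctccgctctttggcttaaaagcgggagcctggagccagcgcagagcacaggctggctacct
All 6 members in the table, the risen and the fallen, held 1 match to TTGCNNAA, a pattern found in 9.56% of the 32851 promoter windows of the table. In Saa3 it began at position -99 from the start, in Saa1 at -182, in Ptx3 at -57 and in Steap4 at -87. Saa1 and Saa2 share theirs as TTGCACAA within closely alike windows, and so are not independent. Steap4 alone of the 6 held TTCNNNGAA (at -116, found in 7.02% of windows) and TATAAA on the other strand (at -215, found in 12.4%). None of the 6 held the NF-kB letters, which 1.21% of windows hold; this says only that these letters are not in these windows. A match is a description of the sequence and not a measured binding site.

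Of the cytokines, receptors, signal carriers, transcription factors and feedback inhibitors around the acute-phase response, Irak3 and Cebpd fell in diseased samples. Their list of 38 genes held 37 tested ones, of which 0 were higher and 2 lower by edgeR (1.61% and 2.13% of all tested genes), with a median log2 fold change of -0.45 against 0.02 over all tested genes. At an unadjusted p below 0.05, 1 was higher and 12 lower (13.4% and 14.4% of all tested genes). DESeq2 called 0 higher and 9 lower (4.79% and 6.65%), and limma-voom 0 and 2 (1.62% and 2.16%). In the blocked fit 2 rose and 19 fell, where 10.5% of all tested genes rose and 13.3% fell. In the blocked fit without pair 3, 8 of the list fell; without pairs 1 and 2 these were 17 and 18. Irak3, a brake on IL-1 and Toll-like receptor signalling, had 77.5, 137 and 99.7 CPM in diseased and 189.9, 322 and 263 CPM in un-diseased replicates 1, 2 and 3. The groups did not overlap, and Irak3 fell by 1.30 on the log2 scale (SE 0.26, adjusted p = 0.0419 by edgeR). Cebpd, the C/EBP factor induced by IL-6 and IL-1, had 109, 113 and 157 CPM in diseased and 206, 217 and 240.5 CPM in un-diseased samples. It also did not overlap between the groups and fell by 0.81 (SE 0.16, adjusted p = 0.0435 by edgeR).

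Other genes of this list are given because of their roles and were chosen after their values were seen. Il6 itself had 74.1, 338 and 220.2 CPM in diseased and 253, 845 and 907 CPM in un-diseased replicates 1, 2 and 3. Like Ptx3 it was lowest in the replicate 1 samples of both groups, and each diseased sample lay below the un-diseased sample of its number. Its log2 fold change was -1.66 (SE 0.62, adjusted p = 0.142 by edgeR), and with the replicate block it fell by 1.71 (SE 0.16, adjusted p = 0.00115 by edgeR). With the block the receptor genes Il6ra, Osmr, Lifr, Il1r1 and Il17ra also fell, by 1.13, 0.95, 0.53, 0.68 and 0.88 on the log2 scale, while the shared receptor chain Il6st had -0.13 (SE 0.12). The receptor genes Il17rc, Tnfrsf1a, Il1rap and Il11ra1 did not pass with the block, with changes of 0.37, 0.10, -0.14 and -0.36. The signal carriers Stat3, Jak1, Jak2, Nfkb1 and Rela fell by 0.55, 0.56, 0.64, 1.51 and 0.82. Tyk2, Irak1 and Traf3ip2 did not pass, with 0.12, -0.14 and -0.10. Osm and Il1b, cytokines made mainly by leukocytes, were the 2 that rose with the block, by 1.78 (SE 0.32) and 1.96 (SE 0.26). Socs3, the feedback inhibitor of STAT3 signalling, had a blocked log2 fold change of -0.12 (SE 0.11) and Nfkbiz, the co-factor for IL-17 and IL-1 targets including Lcn2, one of 0.03 (SE 0.13). Neither passed.

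**Figure D4:**
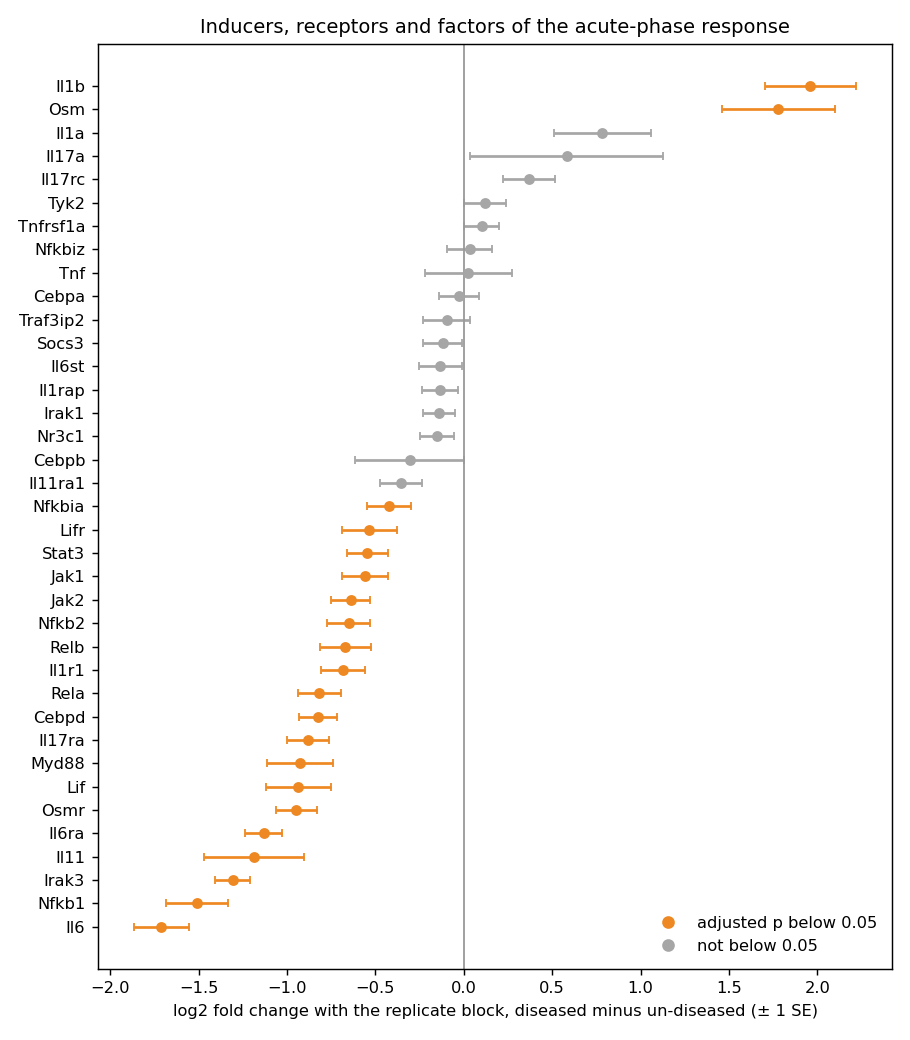
Log2 fold change with the replicate block (horizontal axis, diseased minus un-diseased, bars ± 1 SE) of the 37 tested inducers, receptors, factors and inhibitors; orange marks an adjusted p below 0.05. Il1b and Osm stand at the top, and 19 genes, led by Il6, Nfkb1 and Irak3, lie to the left of 0 in orange.

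Of other acute-phase genes, Agt fell without the block, and genes moved in both directions with it. Of 28 further names 26 were in the table and 16 were tested, and 0 were higher and 1 lower by edgeR (1.61% and 2.13% of all tested genes), with a median log2 fold change of -0.28. At an unadjusted p below 0.05, 0 were higher and 4 lower (13.4% and 14.4% of all tested genes). DESeq2 called 0 and 4 (4.79% and 6.65%), and limma-voom 0 and 1 (1.62% and 2.16%). In the fit with the block 3 rose and 4 fell, where 10.5% of all tested genes rose and 13.3% fell. The gene that passed without the block was Agt, the angiotensin precursor, with 7.58, 7.47 and 4.48 CPM in diseased and 17.8, 15.7 and 13.8 CPM in un-diseased replicates 1, 2 and 3. It fell by 1.28 on the log2 scale (SE 0.22, adjusted p = 0.0312 by edgeR). Named after their values were seen, the blocked rises were the protease inhibitor A2m (0.76), the lipopolysaccharide co-receptor Cd14 (0.91) and the IL-1 antagonist Il1rn (1.72), and the other falls were the protease inhibitor Serpina3n (-0.46) and the metallothioneins Mt1 (-0.59) and Mt2 (-0.61). C3, the central complement component, had the most counts of the list and a log2 fold change of -0.12 (SE 0.21, adjusted p = 0.741 by edgeR), which did not pass.

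The genes whose profiles lay nearest to those of the 4 members called with or without the block were found among 10339 other genes whose log2 CPM averaged 2 or more. Likeness was the root mean square difference of log2 CPM over the 6 samples, after each gene's mean was subtracted. Nearest to Saa3 were Lgals3bp, a secreted glycoprotein gene, at 0.18, Bst1 at 0.20 and Gfra2 at 0.21, against a spread of Saa3 itself of 0.71. Nearest to Hp were B4galnt1 at 0.15, Hdac9 at 0.17 and Ntn3 at 0.18 (spread of Hp 0.65). For Ptx3 they were Plau, the urokinase gene, at 0.30, the cytokine gene Csf2 at 0.30 and the growth factor gene Gdnf at 0.37 (spread 1.58), and for Steap4 they were Zfp655 at 0.04, Cdk12 at 0.05 and Postn at 0.05 (spread 0.37). Plau had 260.1, 1740.2 and 829.5 CPM in diseased and 1128, 4881 and 4614 CPM in un-diseased replicates 1, 2 and 3. As for Ptx3, un-diseased replicates 2 and 3 were the highest and diseased replicate 1 the lowest.

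Markers of other cell types were measured in the same libraries, because neutrophils store Lcn2, Hp and Ptx3 and macrophages, fat cells and liver cells make several members. In bulk samples fewer cells of a type and less RNA per cell cannot be told apart. The marker counts here and in the next paragraph stand beside these shares of all tested genes. By edgeR 1.61% were higher and 2.13% lower, and at an unadjusted p below 0.05 13.4% and 14.4%. DESeq2 called 4.79% and 6.65%, and the fit with the block 10.5% and 13.3%. A positive log2 fold change was found for 6874 of the 13264 genes. None of the 10 fibroblast markers was called by edgeR. At an unadjusted p below 0.05 and by DESeq2, 4 were higher and 1, Dcn, was lower. Dcn had 6458 to 6910 CPM in diseased and 9141 to 10250.5 CPM in un-diseased samples (log2 fold change -0.53, SE 0.17). With the block 2 rose, Pdgfrb and Thy1. The fibroblast markers, led by Col3a1, summed to 64233 to 90730 CPM in un-diseased and 85217 to 119068 CPM in diseased samples. The 6 tendon fibroblast markers summed to 3159 to 4350 CPM in un-diseased and 6165 to 9069 CPM in diseased samples. Of these Thbs4 and Fmod rose, and with the block also Scx and Mkx. All 14 tested macrophage markers had a positive log2 fold change (median 1.26; 0 passed by edgeR without the block, 6 at an unadjusted p below 0.05, 3 by DESeq2 and 14 with the block). Their sum was 311, 401 and 152 CPM in diseased and 95.6, 207 and 25.5 CPM in un-diseased replicates 1, 2 and 3, with Lyz2 the most abundant and Fcgr1 at 0 in un-diseased replicate 3. Saa3 and Hp were highest in the replicate 3 samples of their groups, where the macrophage sum was lowest in both groups. Neutrophil markers, led by S100a9, summed to 112, 183 and 60.6 CPM in diseased and 34.9, 225 and 8.86 CPM in un-diseased samples, with 0 of 10 tested called by edgeR, 1 at an unadjusted p below 0.05, 0 by DESeq2 and 3 higher with the block. Ly6g was at 0 in un-diseased replicate 3. Over the same samples Lcn2 ranged from 93.6 to 137 CPM. Mpo, a neutrophil precursor gene, had 19.2 CPM in diseased replicate 3, the sample with most Saa3, and 0.496 to 1.76 CPM in the others. Whether leukocyte RNA has a part in the changes of Saa3 and Hp was not tested.

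The 5 hepatocyte markers in the table summed to 0.156 to 0.432 CPM over the 6 samples and none passed the count filter; Alb had 0 counts in 3 samples. The 9 adipocyte markers summed to 7.35 to 8.85 CPM in diseased and 14.6 to 35.2 CPM in un-diseased samples, so they were lower where Saa3 and Hp were higher; Lep was at 0 in 5 samples. Of the 4 tested, Plin4, the most abundant, fell by 1.37 on the log2 scale (SE 0.25, adjusted p = 0.0347 by edgeR), and with the block and by DESeq2 3 fell, Plin4, Cfd and Car3. Cfd had 0.293, 0.187 and 0.324 CPM in diseased and 8.34, 3.82 and 0.620 CPM in un-diseased replicates 1, 2 and 3. Its log2 fold change was -3.95 (SE 0.91, adjusted p = 0.0576 by edgeR), and with the block it fell by 3.77 (SE 0.59, adjusted p = 0.00518 by edgeR). Car3 had a log2 fold change of -3.75 (SE 0.81, adjusted p = 0.0511 by edgeR), and with the block it fell by 3.63 (SE 0.39, adjusted p = 0.00184 by edgeR). These 2 genes were named after their values were seen, and the part of fat cell RNA in the changes of the acute-phase genes was not tested. The 8 endothelial markers, led by Tek and with Erg alone called (higher; Tek also fell with the block), summed to 47.6 to 65.4 CPM in diseased and 58.7 to 85.0 CPM in un-diseased samples, and the 7 epithelial ones, led by Perp, which fell (Krt5 also with the block), to 1.19 to 2.86 and 3.86 to 6.39 CPM.

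**Figure D5:**
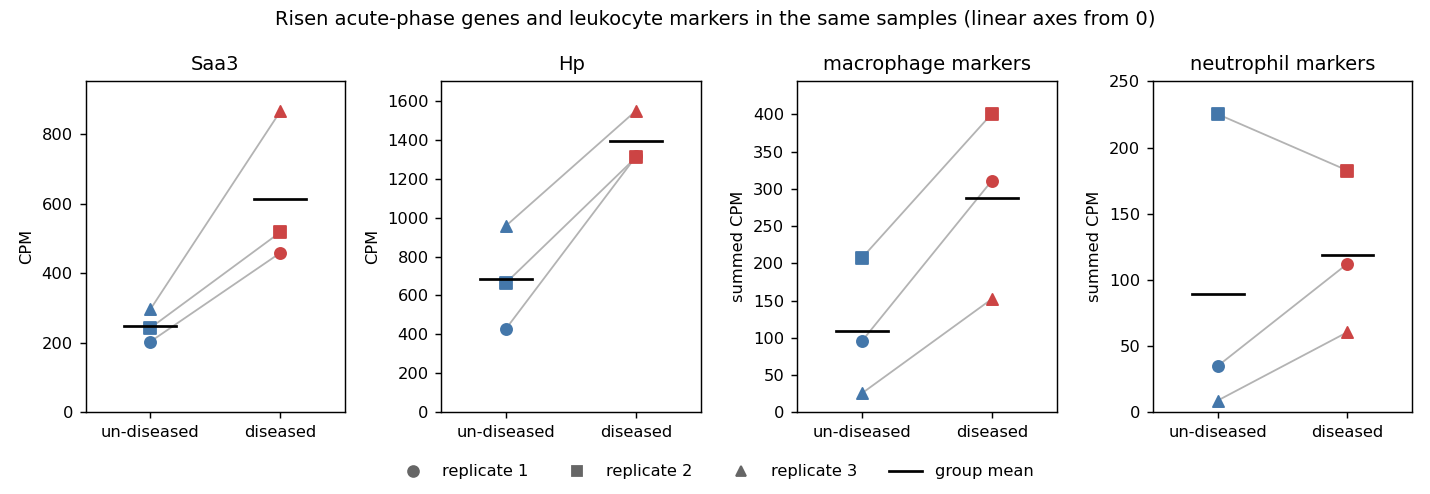
CPM of Saa3 and Hp and the summed CPM of the macrophage and neutrophil marker lists (vertical axes, linear from 0) in the same samples, with symbols for the replicate number, lines joining same-numbered samples and bars at group means. Within each group the replicate 3 sample is the highest for Saa3 and Hp and the lowest for both marker lists. Like Saa3 and Hp, the macrophage sum is higher in each diseased sample than in the un-diseased sample of its number. The neutrophil sum is higher in diseased replicates 1 and 3 and lower in replicate 2.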

How the data were processed

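The authors deposited estimated counts per gene for 6 samples, with a log2 ratio (un-diseased on top), a p-value and a q-value per gene and group means, per the file headers. GRCm38, DESeq2 1.4.5, RSEM 1.3.1 and HISAT2 2.0.4 are named, per the submitters' processing notes, with no role or order given. Fractions were present in 9.61% of the deposited estimated counts, so each was rounded to a whole number. The authors' deposited log2 ratios, p-values and q-values served only for comparison.

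Genes were kept with filterByExpr (least count 10), scaled with TMM and tested with edgeR 4.0.16 (R 4.3.3) by its quasi-likelihood test with Benjamini-Hochberg adjustment over all 13264 tested genes and a threshold of 0.05. Log2 fold changes are diseased minus un-diseased; their SE is the size of the change over the square root of its F statistic. Pair differences use log2 CPM with a prior count of 2. The members and lists were chosen with earlier results of these data known. Named genes were the members, up to 6 called genes of each list by adjusted p or otherwise the 2 with most CPM, the 3 nearest profiles, and the most abundant marker of each cell type.

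Replicate numbers come from the labels. Deviations from the group means of same-numbered samples correlated at 0.487, 0.578 and 0.276 over the tested genes. Those of samples with different numbers correlated at -0.531 to 0.137. With 3 samples per group this is weak evidence of pairing, drawn from these same data, and the labels do not state a pairing. The main test used the group only, and the fit with the replicate block is given as an alternative. No samples of a group were alike within counting noise (chi-square per gene 25.3 to 61.7). The alternatives were other scaling and filters, DESeq2 1.42.0, limma-voom (limma 3.58.1), the block, and leaving out samples or pairs. Positions are from RefSeq GRCm38.p6, transcript lengths from GENCODE on GRCm38. Steps were tested on simulated data, which were drawn from the blocked fit and so had replicate effects built in. There the blocked fit recovered more of the changed genes than the unblocked one and also made more false calls. Because that setting favours the block, the better recovery does not show that the real samples are paired.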

Additional observations from a re-analysis of the deposited data

How the results depend on the processing

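Direction was the same in every alternative in which the 7 tested members had a value. Genes called higher numbered 213, against 417 with upper-quartile factors, 635 with DESeq2, 1397 with the replicate block and 807 with the block in DESeq2; without single samples they numbered 2 to 354, and with the block without single pairs 426 to 1013 (809 without pair 2). Genes called lower numbered 282, against 882 with DESeq2, 1770 with the block and 1403 with the block in DESeq2; without single samples 3 to 721, and with the block without single pairs 583 to 1556 (1274 without pair 2). Members called higher numbered 1, against 2 with upper-quartile factors, DESeq2, the block and the block in DESeq2, 0 without any single sample, and 2 to 3 with the block without single pairs. Members called lower numbered 0, against 2 with the block and with the block in DESeq2 and 1 with the block without any pair.

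Of the inducer list, a count added after the data were seen, 0 were higher, against 2 with the block and with the block in DESeq2 and 2 to 3 with the block without single pairs. In it 2 were lower, against 4 with upper-quartile factors, 5 with the filter of 1 count over all samples, 9 with DESeq2, 19 with the block and 19 with the block in DESeq2; without single samples 0 to 6 were lower, and with the block without single pairs 8 to 18. The cause of these differences was not tested, beyond the fewer samples in the fits that leave some out. The calls of Agt, Irak3 and Cebpd without the block each held in 12 of 17 alternatives and were lost without any single sample other than un-diseased replicate 1, with adjusted p by edgeR of up to 0.116, 0.173 and 0.122. The depth limits Saa2 and Orm1, with at most 19 and 12 counts in a sample.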

Other observations

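A list of 18 receptors and partners of acute-phase proteins held 16 tested genes, of which 0 were called by edgeR; 1 was higher and 2 lower at an unadjusted p below 0.05 (13.4% and 14.4% of all tested genes), DESeq2 called 1 higher and 1 lower (4.79% and 6.65%) and limma-voom 0. With the replicate block 3 rose and 3 fell, where 10.5% and 13.3% of all tested genes did. Named after their values were seen, the rises were Mmp9 (1.25), C1qa (1.44) and Fcgr1 (2.28). The falls were Fgf2 (-1.29), Tfrc (-0.77) and Tnfaip6 (-0.93). C1qa and Fcgr1 are also in the macrophage marker list and so are counted in both lists. Tnfaip6, which encodes the hyaluronan-binding protein TSG-6 that works together with pentraxin 3 in the matrix, had 441, 1577 and 1030.4 CPM in diseased and 799, 2453 and 2509 CPM in un-diseased replicates 1, 2 and 3. Its replicate 1 samples were the lowest of both groups, as for Ptx3. With the block Tnfaip6 fell by 0.93 on the log2 scale (SE 0.16, adjusted p = 0.00729 by edgeR), and without it the change was -0.92 (SE 0.54, adjusted p = 0.298 by edgeR). Hmox1, the haem oxygenase that breaks down haem from the haemoglobin that haptoglobin captures, had 279.7, 590 and 489 CPM in diseased and 1189.8, 616 and 586 CPM in un-diseased samples. Its un-diseased replicate 1 stood apart from the other 5, and its log2 fold change of -0.82 (SE 0.36, adjusted p = 0.186 by edgeR) did not pass.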
